A study of Mus musculus with 6 samples.

Results

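The 10 genes below, which T cells switch on soon after engagement of the antigen receptor, were followed library by library: the EGR factors Egr1, Egr2 and Egr3, the NR4A nuclear receptors Nr4a1, Nr4a2 and Nr4a3, and Ier2, Dusp1, Dusp2 and Myc. They were taken by symbol from the table of normalized read counts, as 10 of its 14744 genes. The members were chosen by their known induction through the T cell receptor and with earlier results of the contrast between the groups in view, so their differences between groups are given as a description, without a test. Of the 10, 9 passed the filter on low values (at least 10 in at least 3 libraries), and Egr3 did not.

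The study sequenced polyA RNA of T follicular helper (Tfh) cells, CD4 T cells that give help to B cells of germinal centers, from mesenteric lymph nodes of C57BL/6 mice (C57BL/6J in the study's methods). For each sample 10000 to 30000 CD4+B220-CD44+PD-1+CXCR5+ cells were sorted, and mice of 2 to 3 months were used in the study's experiments on these cells. The samples were 3 wild-type (WT) libraries, with WT in the study's text meaning Cd4-Cre littermates, and 3 libraries labelled Bach2-cKO of the genotype Bach2 fl/fl Cd4-cre, in which Cre driven by Cd4 regulatory sequence acts in all T cells that pass through the CD4-expressing thymic stage, CD8 T cells and regulatory T cells included. Nothing in the labels says that the samples came from separate animals, so p-values measure only the spread between these samples. The comparison asks how the transcripts of these genes differ between Tfh libraries with and without a Bach2 deletion in T cells.

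Bach2, the deleted gene, was counted at 233, 222 and 105 normalized reads in WT replicates 1 to 3 and at 399, 763 and 591 in Bach2-cKO replicates 1 to 3. It was thus higher in every library labelled as deleted than in any WT library, by 1.68 ± 0.37 (SE) on the log2 scale, which goes against the labels. A count over a whole gene also takes reads from exons that a deletion leaves, and 3 annotated genes overlap Bach2, 1 of them on the opposite strand. The groups are therefore called the WT-labelled libraries and the libraries labelled Bach2-deficient, and every direction below is a direction between labels.

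One library stood apart. In WT replicate 1, 11648 genes had a value over 0, whereas the other 5 libraries had 13111 to 13567. It held the highest value of 26.7% of the 11296 genes tested and the lowest value of 34.2%. Bach2-cKO replicate 1 held 24.8% and 21.3%, and the other 4 libraries held 9.80% to 14.7% and 9.56% to 11.9%. The sums of normalized counts ranged from 7361229 to 8135325, and in 5 libraries whose values were turned back into whole reads the depth was 5045131 to 10987752 reads. The values of WT replicate 1 were also whole multiples of 1 step, and it would hold 7737531 reads if that step is 1 read, which was not settled. The differences of the members are given with and without WT replicate 1.

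As background, receptor engagement activates the Ras-ERK and calcineurin-NFAT routes, and factors already present in the cell then start transcription of immediate early genes without new protein synthesis. EGR factors bind GC-rich DNA, and NR4A receptors bind DNA without needing a known ligand. Both families report recent receptor signaling and take part in T cell activation, tolerance and exhaustion, and EGR2 and EGR3 are known to bear on Tfh differentiation.

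Promoter sequence is shown for members of both families and for 1 MAP kinase phosphatase, because these genes share early induction and their start sites carry known response elements. RefSeq windows (GRCm38.p6, from 250 bases before to 50 after a start site) were found for 6 of the 10 members: Egr2, Nr4a1, Nr4a2, Nr4a3, Dusp1 and Dusp2. Capitals mark matches, on either strand, to the cAMP response element TGACGTCA, its core TGACG, the CArG box bound by SRF, or the EGR motif GCGNGGGCG; the core lies inside the full element. From each window, only the bases before the first base inside that window that GENCODE M21 gives to an exon of that gene are printed. The stretches of Egr2, Nr4a1 and Dusp1 lie within the annotated span of their gene, between exons, and those of Nr4a2 and Nr4a3 lie before it. The Egr2 stretch is chr10:67537619-67537868 on the plus strand, that of Nr4a1 chr15:101266596-101266845 on the plus strand, that of Nr4a2 chr2:57124004-57124253 on the minus strand, that of Nr4a3 chr4:48045055-48045152 on the plus strand, and that of Dusp1 chr17:26508520-26508722 on the minus strand.
Egr2: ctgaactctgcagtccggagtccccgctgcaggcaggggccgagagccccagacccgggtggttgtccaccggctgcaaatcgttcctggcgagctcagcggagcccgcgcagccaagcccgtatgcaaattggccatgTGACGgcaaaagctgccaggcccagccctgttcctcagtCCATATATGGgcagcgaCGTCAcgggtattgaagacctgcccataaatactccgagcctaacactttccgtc
Nr4a1: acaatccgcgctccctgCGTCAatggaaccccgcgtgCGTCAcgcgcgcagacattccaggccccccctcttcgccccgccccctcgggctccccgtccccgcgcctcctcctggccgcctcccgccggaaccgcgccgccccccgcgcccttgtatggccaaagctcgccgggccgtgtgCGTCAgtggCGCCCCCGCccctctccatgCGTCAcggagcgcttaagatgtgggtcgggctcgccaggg
Nr4a2: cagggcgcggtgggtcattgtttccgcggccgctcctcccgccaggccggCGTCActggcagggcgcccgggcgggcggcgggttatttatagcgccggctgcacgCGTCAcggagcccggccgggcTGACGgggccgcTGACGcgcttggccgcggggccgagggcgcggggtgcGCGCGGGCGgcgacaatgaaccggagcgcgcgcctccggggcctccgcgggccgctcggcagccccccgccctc
Nr4a3: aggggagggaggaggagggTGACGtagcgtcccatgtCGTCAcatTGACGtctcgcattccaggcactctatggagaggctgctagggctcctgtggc
Dusp1: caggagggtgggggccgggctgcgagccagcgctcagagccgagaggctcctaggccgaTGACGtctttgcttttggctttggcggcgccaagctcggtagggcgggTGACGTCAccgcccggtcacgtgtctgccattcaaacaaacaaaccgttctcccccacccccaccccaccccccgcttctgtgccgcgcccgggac

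The TGACG core was found in at least 1 window of each of the 6 members, against 23% of 27025 genes counted the same way and 20.8% of their 32851 RefSeq windows. Egr2 had 5 windows, which overlap in part, and 3 of these held the core, and each other member had 1 window. In Dusp2 the only match starts 5 bases after the start site. Nr4a1, Nr4a2 and Nr4a3 had 4 matches each. The match of Nr4a3 that lies 147 bases before the start site falls outside the stretch printed. The full element was found only in Dusp1 among the 6, where it starts 143 bases before the start site, and in 1.79% of all windows. A CArG box was found in Egr2, 72 bases before the start site of the stretch shown, and in 1.63% of all windows. The EGR motif lay 60 bases before the start site in Nr4a1, 74 bases before it in Nr4a2 and 98 bases before it in Dusp2, and it was in 5.55% of all windows. The letters TGANTCA, the core shared by AP-1 and BACH motifs, were in none of the windows of the 6 members and in 7.81% of all windows. A match describes the letters only.

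Egr1, a zinc finger factor induced through ERK and SRF, had normalized counts of 131, 325 and 395 in the WT-labelled libraries and 808, 729 and 640.3 in the libraries labelled Bach2-deficient. The groups did not overlap, and WT replicate 1 was the lowest of the 6. The means were 284 ± 137 and 726 ± 84.1 (SD, n = 3 each), a log2 difference of 1.49 ± 0.38 (SE). Without WT replicate 1 the difference was 1.01 ± 0.24, and with a trend in transcript length and GC content removed from each library it was 0.92 ± 0.37. In a bulk library, more cells of a kind that express a gene and more RNA per cell cannot be told apart.

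Egr2, which restrains T cell activation and acts in anergy, had counts of 316, 283 and 335 in the WT-labelled libraries and 503, 441 and 347 in those labelled Bach2-deficient. The groups did not overlap, although Bach2-cKO replicate 3 and WT replicate 3 lay close together. The log2 difference was 0.45 ± 0.25 (SE), and it was 0.47 ± 0.26 without WT replicate 1 and 0.47 ± 0.24 after the correction for length and GC, where the groups overlapped.

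Egr3, a close relative of Egr2, was read in WT replicate 2 at 2.24 normalized counts (2 reads) and was at 0 in the other 5 libraries. A count of 0 allows up to 3 reads, or 2.01 to 4.43 normalized counts in the libraries with recovered reads, for counting error only. Both groups were at or under that floor, so no fold is given.

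Among the 9 members that passed the filter, Egr1 and Egr2 were the 2 whose groups did not overlap, both higher in the libraries labelled Bach2-deficient. Over all 11296 genes tested, 14.6% were higher without overlap and 12.2% lower. After the correction for length and GC, Egr1 alone of the 9 had groups without overlap. Among all genes treated the same way, 13.2% were higher without overlap and 10.1% lower. As the members were chosen with this contrast in view, nothing is read from their count.

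Nr4a1 (NUR77), widely used as a reporter of receptor signal strength, had counts of 245, 88.6 and 105 in the WT-labelled libraries and 209.9, 306 and 205 in those labelled Bach2-deficient. WT replicate 1 lay within the range of the other group, and WT replicates 2 and 3 lay below all of it. The log2 difference was 0.84 ± 0.42 (SE) over all libraries, 1.28 ± 0.33 without WT replicate 1 and 0.75 ± 0.39 after the correction for length and GC. Without WT replicate 1 the groups did not overlap, as was so for 20.5% of all genes tested in this direction with that library left out.

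Nr4a2 (NURR1) was dominated by 1 library. Its counts were 802, 23.6 and 94.6 in the WT-labelled libraries and 38.4, 68.3 and 8.18 in those labelled Bach2-deficient, so that WT replicate 1 held 17.2 times the mean of the other 5. The groups overlapped, and Bach2-cKO replicate 3 rested on 8 reads. The log2 difference of -2.08 ± 1.15 (SE) became -0.73 ± 0.87 without WT replicate 1.

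Nr4a3 (NOR1) had counts of 173, 119 and 147 in the WT-labelled libraries and 119.7, 206 and 139 in those labelled Bach2-deficient. The ranges overlapped almost fully, and the log2 difference of 0.06 ± 0.35 (SE) was smaller than its error. It was 0.19 ± 0.35 without WT replicate 1. Its sign turned with quantile normalization (-0.04), after the correction for length and GC (-0.26) and when single libraries were left out. Nr4a1 and Nr4a3 were both highest in Bach2-cKO replicate 2 and lowest in WT replicate 2. Nr4a2 was highest in WT replicate 1 and lowest in Bach2-cKO replicate 3.

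**Figure D1:**
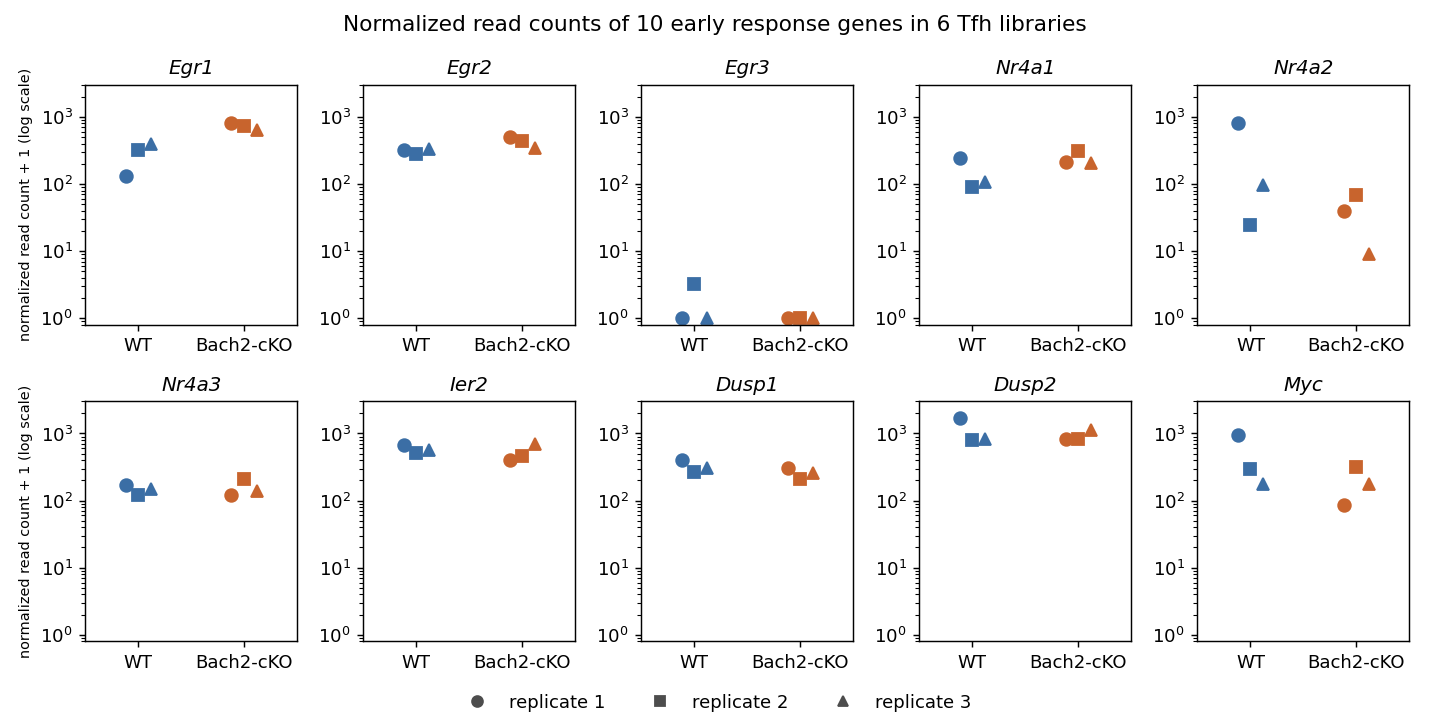
Normalized read counts plus 1, on a log scale, of the 10 genes in each of the 6 Tfh libraries, with WT-labelled libraries in blue, Bach2-cKO-labelled libraries in orange and replicates as symbols. Egr1 and Egr2 do not overlap between groups, Egr3 is at or near 0, and WT replicate 1 lies far above the rest for Nr4a2 (802) and Myc (959).

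Ier2, an immediate early gene of unclear molecular function, had counts of 681, 506 and 571 in the WT-labelled libraries and 396, 458 and 689 in those labelled Bach2-deficient. The latter group held both the lowest and the highest value. The log2 difference was -0.22 ± 0.27 (SE), and -0.10 ± 0.28 without WT replicate 1.

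Dusp1, a nuclear phosphatase that switches off MAP kinases, had counts of 401, 262 and 301 in the WT-labelled libraries and 303, 209.7 and 257 in those labelled Bach2-deficient. WT replicate 1 was the highest, and the groups overlapped. The log2 difference of -0.32 ± 0.29 (SE) became -0.15 ± 0.28 without that library. In GENCODE M21 the span of Dusp1 overlaps 4 other genes, Ergic1 on the opposite strand among them, and whether the counting used strand is not given in the sources used here.

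Dusp2 (PAC1), a lymphoid MAP kinase phosphatase, had counts of 1718, 794 and 832 in the WT-labelled libraries and 822, 815 and 1112 in those labelled Bach2-deficient. Apart from WT replicate 1 and Bach2-cKO replicate 3, the libraries lay close together. Its log2 difference was -0.20 ± 0.31 (SE) with all libraries and 0.16 ± 0.23 without WT replicate 1, so its sign rests on that library.

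Myc, which drives growth and metabolism of activated lymphocytes, had counts of 959, 297 and 174 in the WT-labelled libraries and 85.7, 318 and 176 in those labelled Bach2-deficient. WT replicate 1 held 4.56 times the mean of the other 5 libraries, and the groups overlapped with and without it. The log2 difference was -1.12 ± 0.62 (SE) over all libraries and -0.43 ± 0.48 without WT replicate 1.

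WT replicate 1 was the highest of the 6 libraries for 4 of the 9 members (Nr4a2, Dusp1, Dusp2 and Myc) and the lowest for 1 (Egr1). WT replicate 2 was the lowest for 4 (Egr2, Nr4a1, Nr4a3 and Dusp2). When WT replicate 1 was left out, the differences of Egr1, Nr4a2, Ier2, Dusp1 and Myc moved toward 0, those of Nr4a1 and Nr4a3 moved away from it, that of Egr2 hardly moved and that of Dusp2 changed sign.

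**Figure D2:**
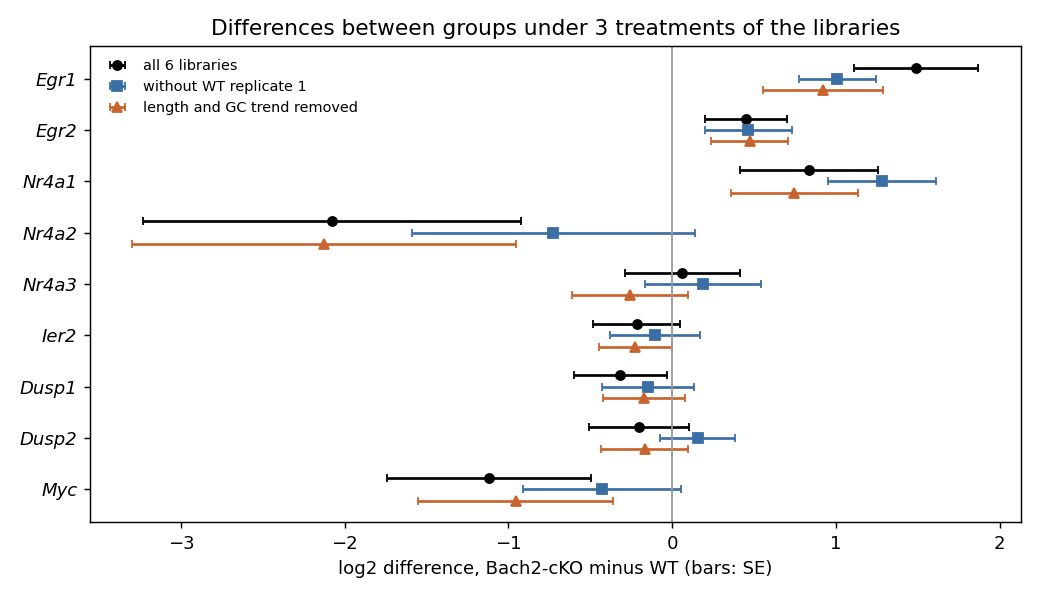
Log2 differences (libraries labelled Bach2-deficient minus WT-labelled) of the 9 genes that passed the filter, with bars of 1 SE, for all 6 libraries, without WT replicate 1, and with a transcript length and GC trend removed. Egr1 (1.49, 1.01 and 0.92) and Nr4a1 (0.84, 1.28 and 0.75) lie above 0 in each treatment, whereas Dusp2 and Nr4a3 lie on both sides of it.

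Levels were compared between genes per kb of the longest annotated transcript. In the WT-labelled libraries Dusp2 stood at 689 ± 323 normalized counts per kb (SD, n = 3) and Ier2 at 385 ± 58.3. Myc, Dusp1, Egr2, Nr4a2, Egr1 and Nr4a1 followed in this order, from 204 ± 181 for Myc to 57.3 ± 33.7 for Nr4a1, then Nr4a3 at 25.5 ± 4.69 and Egr3 at 0.19 ± 0.33. Of the neighbours in this order, Ier2 and Myc, Myc and Dusp1, Egr2 and Nr4a2, Nr4a2 and Egr1, and Egr1 and Nr4a1 had overlapping ranges. Several of these levels rest on 1 library. Without WT replicate 1, Myc stood at 101 ± 37.4 per kb (SD, n = 2), behind Egr2, and Nr4a1 at 37.9 ± 4.54. Nr4a2 went from 86.0 ± 121 to 16.6 ± 14.1, behind Nr4a3.

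In the libraries labelled Bach2-deficient, Dusp2 (567 ± 105 per kb) and Ier2 (338 ± 102) again stood first. Egr1 came next at 162 ± 18.8, with Egr2 at 145 ± 26.5, Dusp1 at 111 ± 20.2, Nr4a1 at 94.1 ± 22.4 and Myc at 82.7 ± 50.1. Each of these from Egr1 to Myc overlapped with its neighbour. Nr4a3 at 27.1 ± 7.89 and Nr4a2 at 10.7 ± 8.43 were lower, without overlap between neighbours.

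**Figure D3:**
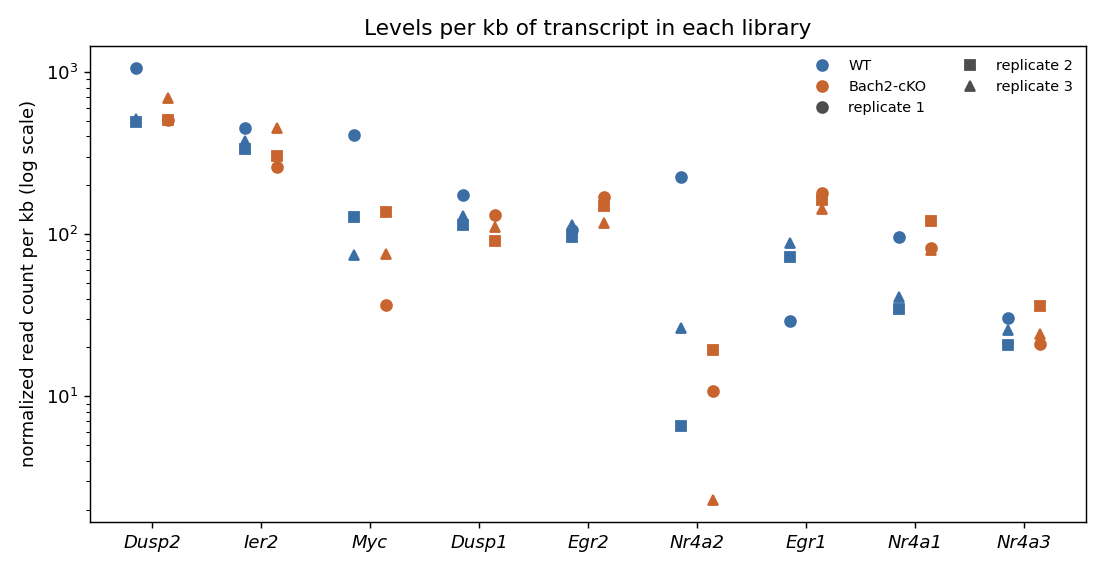
Normalized read counts per kb of the longest transcript, on a log scale, for the 9 genes that passed the filter in each library, ordered by the WT mean. Dusp2 and Ier2 lie highest in both groups, and Egr1 moves from 63.3 per kb on average in WT-labelled libraries to 162 in those labelled Bach2-deficient.

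Ratios within a library do not depend on its scaling. The ratio of Egr1 to Egr2 counts was 0.42, 1.15 and 1.18 in the WT-labelled libraries and 1.61, 1.65 and 1.85 in those labelled Bach2-deficient, without overlap. The ratio of Nr4a1 to Nr4a3 counts was 1.42, 0.75 and 0.72 against 1.75, 1.49 and 1.47, also without overlap, with WT replicate 1 close to the other group. The ratio of Myc to Ier2 overlapped, with 1.41, 0.59 and 0.30 against 0.22, 0.69 and 0.26, as did that of Dusp2 to Dusp1, with 4.29, 3.03 and 2.77 against 2.71, 3.89 and 4.33. Of all 36 pairs of the 9 members, 12 had ratios without overlap, 33.3%, against 25% of all pairs of the 10564 tested genes with a value above 0 in every library. Egr1 and Nr4a1, each a partner in 8 of the 36, were partners in 6 and 5 of the 12. Pairs that share a gene are not independent, and these were counted after their values were seen.

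The other genes of the pathway were read from 6 lists with 127 genes, of which 116 passed the filter. With limma, 0 of the 116 were called in either direction at an adjusted p under 0.05, as were 0 of all 11296 genes (0% higher and 0% lower). The smallest adjusted p over all genes was 0.141 (limma). At an unadjusted p under 0.05, 16 of the 116 were higher and 9 lower in the libraries labelled Bach2-deficient, against 10.1% and 10.2% of all genes. With single libraries left out these numbers ranged from 9 (without Bach2-cKO replicate 2) to 24 (without Bach2-cKO replicate 3) higher and from 3 (without Bach2-cKO replicate 1) to 17 (without Bach2-cKO replicate 3) lower. Over all genes they ranged from 468 (without Bach2-cKO replicate 1) to 1484 (without Bach2-cKO replicate 3) higher. The lower counts over all genes ranged from 606 to 1586, with the same libraries left out. DESeq2 on the reads of 5 libraries, which leaves out WT replicate 1, called 5 of the 107 with an adjusted p higher (Ier5, Jund, Spred2, Mapk3 and Zfp36l2) and 2 lower (Tnfrsf9 and Foxp3), against 2.02% and 2.32% of the 9105 such genes in all, and edgeR on the same reads called 0. Without overlap between groups, 21 were higher and 10 lower, against 14.6% and 12.2% of all genes, and without WT replicate 1 these were 28 and 18, against 20.5% and 18.1%.

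Zfp36l2, which encodes an RNA-binding protein that destabilizes AU-rich transcripts, was named after its values were seen. It had counts of 321, 541 and 491 in the WT-labelled libraries and 889.7, 920.0 and 900.1 in those labelled Bach2-deficient, with a log2 difference of 1.04 ± 0.25 (SE) and a limma adjusted p of 0.141. The DESeq2 log2 difference on 5 libraries was 0.78 ± 0.25, with an adjusted p of 0.044.

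In the list of other immediate early genes, 28 of 32 were tested, and 5 were higher and 1 lower without overlap, against 14.6% and 12.2% of all genes. The median log2 difference was -0.14, and that of all genes was 0.08. Without WT replicate 1 the median was 0.13, and 7 were higher and 5 lower, against 20.5% and 18.1% of all genes. With other single libraries left out the median ran from -0.20 to -0.07. After the correction for length and GC, 5 were higher and 4 lower without overlap, against 13.2% and 10.1% of all genes treated the same way. Ier5, an early gene that binds heat shock factor, had counts of 292, 323 and 425 in the WT-labelled libraries and 1162, 933 and 499 in those labelled Bach2-deficient. Its log2 difference was 1.25 ± 0.32 (SE), with a limma adjusted p of 0.141 and a DESeq2 adjusted p of 0.030. Jund, an AP-1 subunit, had 260.4, 213 and 319 against 662, 706 and 366. The log2 difference of Jund was 1.09 ± 0.31, with adjusted p values of 0.146 (limma) and 0.045 (DESeq2). Nfkbid, a nuclear IκB protein, was the gene lower without overlap, by a log2 difference of -0.50 ± 0.23 (limma adjusted p = 0.249).

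Fos and Jun, the best known early AP-1 genes, were low throughout. Fos lay at 28.1 to 56.1 in the WT-labelled libraries and at 49.1 to 79.8 in those labelled Bach2-deficient, and Jun did not exceed 33.5 in any library. These genes were named after their values were seen.

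Of the MAP kinase phosphatases and feedback inhibitors other than Dusp1 and Dusp2, 8 of 14 were tested, and 1 was higher and 0 lower without overlap, against 14.6% and 12.2% of all genes, or 2 and 0 without WT replicate 1, against 20.5% and 18.1%. The gene higher with all libraries was Spred2, an inhibitor of Ras-ERK signaling, with counts of 93.9, 69.5 and 54.1 against 183, 149 and 150.3. Its log2 difference was 1.17 ± 0.38 (SE), with adjusted p values of 0.159 (limma) and 0.033 (DESeq2). The median of the list was 0.26, and it was 0.14 without WT replicate 2, 0.38 without WT replicate 1 and 0.16 after the correction for length and GC.

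All 25 genes of the signaling list, from Ras activators to the factors SRF, NFAT and MEF2, were tested. Of these, 10 were higher and 1 lower without overlap, against 14.6% and 12.2% of all genes, and 11 and 1 without WT replicate 1, against 20.5% and 18.1%. At an unadjusted p under 0.05 (limma), 7 were higher and 1 lower, against 10.1% and 10.2% of all genes. The median log2 difference was 0.29. With single libraries left out it ranged from 0.25 (without Bach2-cKO replicate 1) to 0.67 (without Bach2-cKO replicate 3), and it was 0.42 with quantile normalization. The genes of this list were long, with a median transcript of 4797 bases against 3268 for all genes tested, and across 11264 genes the log2 difference rose with transcript length (Spearman rho = 0.32, across genes, which are not independent replicates). After the correction for length and GC the median was 0.16, and 8 were higher and 1 lower without overlap, against 13.2% and 10.1% of all genes treated the same way.

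Mapk3, which encodes the kinase ERK1, had counts of 116, 186 and 187 in the WT-labelled libraries and 569, 452 and 389.7 in those labelled Bach2-deficient. Its log2 difference was 1.54 ± 0.30 (SE), with adjusted p values of 0.141 (limma) and 0.0035 (DESeq2). Sos1, a Ras activator, had 54.5, 269 and 287 against 491, 409 and 289, and its log2 difference of 1.25 ± 0.57 (limma adjusted p = 0.246) became 0.48 ± 0.29 without WT replicate 1.

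In the list of EGR corepressors and genes tied to EGR2 and EGR3, 16 of 17 were tested, and 2 were higher and 1 lower without overlap, against 14.6% and 12.2% of all genes. Without WT replicate 1 these were 2 and 5, against 20.5% and 18.1% of all genes, so the count of lower genes depends on that library. The median was 0.01, ranging from -0.06 (without WT replicate 1) to 0.14 (without WT replicate 3) with single libraries left out. Tnfrsf9 (4-1BB), a costimulatory receptor, had counts of 3020.0, 1096 and 1492 in the WT-labelled libraries and 343, 600.4 and 632 in those labelled Bach2-deficient. Its log2 difference was -1.75 ± 0.37 (SE), with adjusted p values of 0.141 (limma) and 0.0043 (DESeq2). Cdkn1b, which encodes the cell cycle inhibitor p27, had a log2 difference of 0.84 ± 0.33 (limma adjusted p = 0.204), and 0.50 ± 0.27 without WT replicate 1. Dgkz, a diacylglycerol kinase that damps Ras activation, had 0.48 ± 0.19 (limma adjusted p = 0.204), which turned to -0.14 ± 0.17 after the correction for length and GC. The corepressors Nab1 and Nab2, named after their values were seen, differed by 0.02 and 0.21 with overlapping groups, and by -0.03 and 0.57 without WT replicate 1.

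Of the genes tied to NR4A factors, all 15 were tested, with 3 higher and 3 lower without overlap both with all libraries, against 14.6% and 12.2% of all genes, and without WT replicate 1, against 20.5% and 18.1%. The median was -0.12, and it ranged from -0.13 (without WT replicate 2) to 0.24 (without WT replicate 3) with single libraries left out. It turned to 0.07 with quantile normalization and to 0.22 after the correction for length and GC. Rxra, a partner of NR4A1 and NR4A2, had counts of 20.2, 37.0 and 24.96 against 66.5, 176 and 64.4, a log2 difference of 1.74 ± 0.58 (SE, limma adjusted p = 0.164). Tox2, a nuclear factor of Tfh cells, had counts of 624, 1260 and 1365 against 2739, 1759 and 2190. Its log2 difference of 1.10 ± 0.31 (limma adjusted p = 0.146) became 0.74 ± 0.23 without WT replicate 1. Foxp3, the regulatory T cell factor, had 222, 315 and 344 against 47.3, 140.0 and 91.0. The log2 difference of Foxp3 was -1.76 ± 0.43, with adjusted p values of 0.141 (limma) and 0.0035 (DESeq2), and that of the AP-1 factor Batf was -0.67 ± 0.25 (limma adjusted p = 0.185).

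In the list of MYC partners and targets, all 24 were tested, with 0 higher and 4 lower without overlap, against 14.6% and 12.2% of all genes, and a median of -0.34. The 2 with the largest differences among these were Mlx, a MYC network factor, at -1.07 ± 0.35 (SE, limma adjusted p = 0.162), and Gnl3 (nucleostemin), at -0.79 ± 0.28 (limma adjusted p = 0.172). After the correction for length and GC, Mlx was at -0.72 ± 0.29 and Gnl3 at -0.40 ± 0.23. Leaving out Bach2-cKO replicate 3 gave a median of -0.19. Without WT replicate 1 the median was -0.13, and 3 were higher and 4 lower without overlap, against 20.5% and 18.1% of all genes. After the correction for length and GC the median was -0.38. Then 2 were higher and 0 lower without overlap, against 13.2% and 10.1% of all genes treated the same way. The count lower without overlap thus rests on that choice. WT replicate 1, in which Myc itself was highest, was the highest library for 13 of the 24, against 26.7% of all genes.

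**Figure D4:**
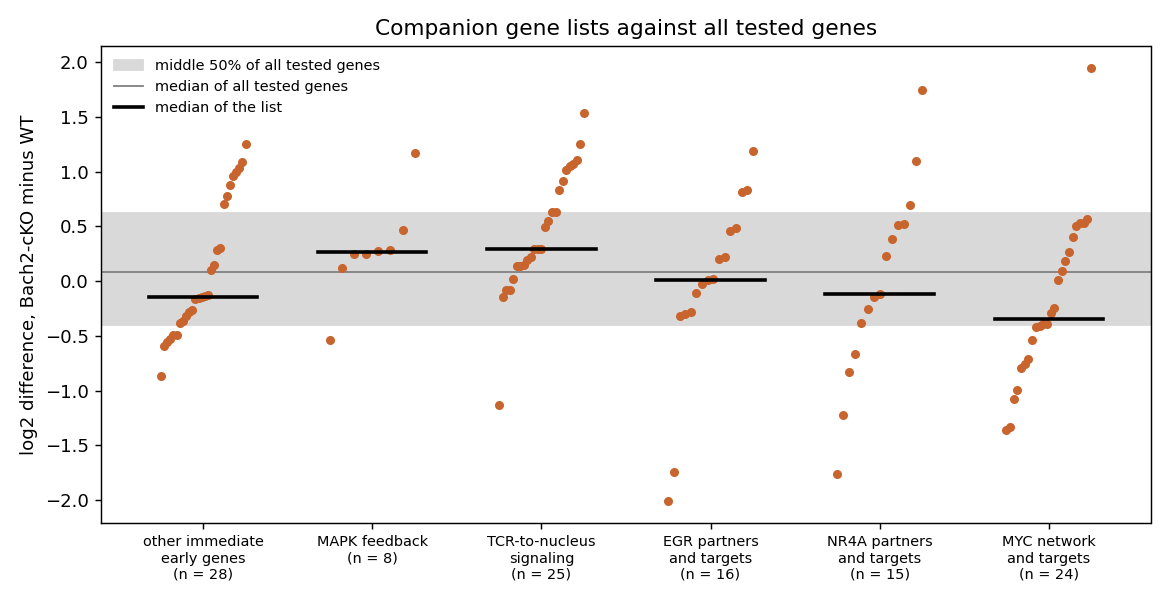
Log2 differences (libraries labelled Bach2-deficient minus WT-labelled) of the tested genes in each of the 6 lists, with the list's median as a black line and the median and middle 50% of all tested genes as a grey line and band. With all libraries and no correction, the signaling list has the highest median (0.29) and the MYC list the lowest (-0.34), both within the grey band. Without WT replicate 1 the MAP kinase feedback list was highest (0.38, against 0.30 for the signaling list). After the correction for length and GC the NR4A list was highest (0.22 against 0.16).

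Over the 6 libraries, the genes most like the mean profile of Egr1 and Egr2 (Egr3 did not pass the filter) were Arhgap27, Parp9 and Zfp703, with Pearson r of 0.995, 0.994 and 0.993. How often such values arise by chance with 6 points was not tested, and 214 genes exceeded an r of 0.95. Closest to the mean profile of the 3 NR4A genes were Ticrr (r = 0.997), Nfkb1 (r = 0.988) and Llph-ps1 (r = 0.986), and 13 genes exceeded 0.95. These correlations share libraries, depth and scaling and are given as descriptions.

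The labelled cell type was checked against its markers. Each of the 11 T cell and Tfh markers, of which 3 (Cd200, Pdcd1 and Tox2) also stand in the NR4A list, was tested. Without overlap, 3 were higher and 2 lower, against 14.6% and 12.2% of all genes. Sh2d1a was the most abundant. Cxcr5 lay at 1271 to 2207 over the 6 libraries. Bcl6, the factor that directs Tfh differentiation, lay at 342 to 501 in the WT-labelled libraries and at 537 to 818 in those labelled Bach2-deficient, a log2 difference of 0.74. Cd3e, a T cell receptor complex subunit, lay at 9648 to 11924 against 4534 to 6139.8, a log2 difference of -1.02. DESeq2 on 5 libraries called Cd3e and Icos lower, as it did 2.32% of all genes with an adjusted p. The sum of these 11 was 32827, 35233 and 46951 in the WT-labelled libraries and 29902, 24790.3 and 32917 in those labelled Bach2-deficient.

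Markers of other cells were present and moved with the groups in part. Of 14 B cell markers, 12 were in the table and 9 were tested, with 0 higher and 2 lower without overlap, against 14.6% and 12.2% of all genes, or 0 and 4 without WT replicate 1, against 20.5% and 18.1%. DESeq2 on 5 libraries called 3 of them lower (Cd79a, Cd79b and Cd74), against 2.32% of all genes. WT replicate 1, left out there, had Cd79a at 19.2, against 14.7 to 45.0 in the libraries labelled Bach2-deficient. It had Cd79b at 112, against 102 to 145, and Cd74 at 10856, against 3251 to 8453. The sum of the B cell markers was 15706, 20105 and 13234 against 6178, 13363 and 5419. Most of this sum was Cd74, which activated and antigen-presenting cells of several kinds express. Of the 9 tested, 6 had a log2 difference below 0 and 3 above it (Cd22 at 0.94, Cr2 at 1.40 and Fcer2a at 2.33, named after their values were seen). These 3 depend on WT replicate 1, where Cr2 and Fcer2a were at 0 and Cd22 at 36.3. In WT replicates 2 and 3, Cr2 had 32.5 and 23.9, against 12.3 to 56.3 in the libraries labelled Bach2-deficient. Cd22 had 102 in each, against 77.7 to 238, and Fcer2a had 12.3 and 0, against 6.70 to 14.3. Ms4a1 lay at 33.7 to 45.8 in the WT-labelled libraries and at 2.68 to 10.2 in those labelled Bach2-deficient. B cells induce the same early genes. The sort took CD4+B220- cells, and the part of B cell RNA in the results on the members was not tested.

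Of 12 myeloid markers, 11 were tested, with 0 higher and 1 lower without overlap, against 14.6% and 12.2% of all genes. Their sum was 5867, 14591 and 8357 against 6530, 11889 and 5324, with Cst3 the most abundant, and Lyz2 ranged from 1407 to 7212. All 9 markers of CD8 T cells and NK cells were tested, with 0 higher and 1 lower without overlap, against the same shares of all genes, or 0 and 3 without WT replicate 1, against 20.5% and 18.1%. DESeq2 called Gzmb higher and Klrb1c lower, against 2.02% and 2.32% of all genes. WT replicate 1, left out there, had Klrb1c at 115, against 69.5 to 163 in the libraries labelled Bach2-deficient. The 9 markers summed to 6443, 5052 and 3811 against 1771, 5234 and 2683, with Nkg7 the most abundant and Ncr1 at 0 in WT replicate 1. The 5 regulatory T cell markers, of which 3 (Foxp3, Ikzf2 and Ctla4) also stand in the NR4A list, had 0 higher and 3 lower without overlap, against 12.2% lower among all genes, and DESeq2 called 1 of the 5, Foxp3, lower, against 2.32%. Their sum was 6415, 6887 and 8672 against 6951, 5858 and 5249, with Ikzf2 the most abundant.

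The 7 naive and central memory T cell markers, led by Tcf7, had 1 higher and 0 lower without overlap, against 14.6% and 12.2% of all genes, with sums of 11898, 12679 and 9591 against 14002, 13870 and 12027. Of 7 stromal and endothelial markers, 5 were in the table and 1 was tested. That was Pecam1, which T cells also express, and Col1a1, Col1a2, Cdh5 and Pdgfrb stayed below 10 in every library. The part of these cell types in the results was not tested.

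Early genes also respond to the handling of cells, as heat shock genes do. Of 11 heat shock genes, 10 were tested, with 0 higher and 2 lower without overlap, against 14.6% and 12.2% of all genes. Their median log2 difference was -0.45, and DESeq2 called 1, Hspd1, lower, against 2.32% of all genes. Their sum was 66800.3, 54159 and 80158 in the WT-labelled libraries and 64443, 51212 and 34571 in those labelled Bach2-deficient, with Hspa8 the most abundant. Of the 10 tested, 8 had a log2 difference below 0 and 2 above it. Hspa1a, a gene strongly induced by stress, had 8.07, 1.12 and 2.08 in the WT-labelled libraries and 31.0, 10.7 and 0 in those labelled Bach2-deficient. Hspa1b had 1.01, 11.2 and 33.3 against 154, 69.0 and 1.02, a log2 difference of 1.57 with overlapping groups. The part of handling in the results was not tested.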

How the data were processed

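The authors deposited 1 table of normalized read counts (signal: gene read counts divided by a size factor of each library) for 6 libraries made with a SMARTer low-input kit and sequenced on a NextSeq500. The study's methods name Tophat2, HTSeq and DESeq2, whereas the submitters' processing notes list STAR 2.5.2b, DESeq, R 3.5.1, DESeq2 1.20.0 and the builds GRCm38 and mm10. Each library's values were whole multiples of 1 step (100% of values within 0.1). For 5 libraries the step was taken as 1 read, and those reads were used in edgeR 4.0.16 and DESeq2 1.42.0. In WT replicate 1 the step of 1.01 was too close to 1 to be accepted as 1 read, so it was left out there, and the calls of both tools rest on that choice.

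Groups were compared with limma 3.58.1 (R 4.3.3), letting the variance follow a trend, on log2(value + 1), which understates differences of low genes. It used genes of at least 10 in at least 3 libraries, 2 groups of 3, no covariates, and Benjamini-Hochberg adjustment over all of them. Scripts were tested on simulated data. Symbols were matched to GENCODE M21 for length and GC content (14329 directly and 364 by an older symbol, with 51 unmatched). The members and gene lists were chosen with earlier results of these data known. Genes named were the members, Bach2, defining or most abundant markers, and in each list the genes called or, without any, up to 2 per direction with the largest difference among those without overlap; 3 genes per family profile were added by correlation, and others are marked as chosen after their values were seen. Some genes that this rule names are not reported here. Alternatives were other pseudocounts (0.5 and 5), filters, scalings, variance models, library weights, a length and GC correction, a replicate block, single libraries left out, and the thresholds of the study's methods (adjusted p under 0.01 and over 2-fold). Counts without overlap after leaving out WT replicate 1 or removing the length and GC trend were added after the data were seen.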

Additional observations from a re-analysis of the deposited data

How the results depend on the processing

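With limma, 0 genes were called in either direction with all 6 libraries, with the thresholds of the study's methods and with most alternatives. With all 6 libraries, 1144 were higher and 1157 lower at an unadjusted p under 0.05. With single libraries left out these were 468 to 1484 and 606 to 1586, lowest without Bach2-cKO replicate 1 and highest without Bach2-cKO replicate 3; without Bach2-cKO replicate 2 they were 535 and 669. A variance without trend called 2 higher. Library weights, which gave WT replicate 1 a weight of 0.21 and Bach2-cKO replicate 2 one of 5.54, called 2089 higher and 2079 lower over all genes and 36 higher and 18 lower in the pathway lists. DESeq2 on 5 libraries called 184 higher and 211 lower, with 5 and 2 in the lists, and edgeR on the same reads called 0. With single libraries left out, calls ranged from 0 to 182 higher and 0 to 325 lower over all genes, and from 0 to 3 and 0 to 1 in the lists. The upper ends came without Bach2-cKO replicate 3, where Ier5, Jund and Mapk3 were called higher and Mlx lower. The cause of these differences was not tested.

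Of 153 values of the members under alternatives, 3 moved by more than 1 SD, all with library weights: Nr4a1 to 1.44, Nr4a3 to 0.43 and Myc to 0.25, the last with a turned sign. Nr4a3 and Dusp2 also turned sign in other settings. With single libraries left out, the log2 difference of Egr1 was 1.01 to 1.80, of Egr2 0.33 to 0.60, of Nr4a1 0.55 to 1.28, of Nr4a2 -3.24 to -0.73, of Nr4a3 -0.16 to 0.23, of Ier2 -0.45 to -0.05, of Dusp1 -0.45 to -0.15, of Dusp2 -0.40 to 0.16 and of Myc -1.66 to -0.43. Of 288 values of 16 other genes that the rule for named genes took, 1 reversed, Dgkz at -0.14 after the correction for length and GC.

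With a replicate block 0 genes were called. Same-numbered libraries had correlations of -0.07, 0.12 and -0.04 in their deviations, so the numbers were not taken to pair the samples.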

Other observations

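Several genes outside the members had their highest value in WT replicate 1, as Nr4a2 and Myc did; they were picked after their values were seen. WT replicate 1 was the highest library for 27 of the 116 genes tested in the pathway lists and for 26.7% of all genes, and Bach2-cKO replicate 1 for 32 of the 116. Crtam, an adhesion receptor of activated T cells, had 1289 normalized counts there and 37.8 to 153 in the other 5 libraries. Srm, which encodes spermidine synthase and is a known MYC target, had 2631 there and 268 to 699 elsewhere. Ier3, an early gene tied to cell survival, had 201 there and 8.87 to 33.5 elsewhere. In the same library Fasl, a death ligand that EGR factors can induce, was at 1.01, against 31.0 to 168 in the other 5.

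The ratio of Egr1 to Dusp1 counts, which does not depend on scaling, was 0.33, 1.24 and 1.31 in the WT-labelled libraries and 2.67, 3.48 and 2.49 in those labelled Bach2-deficient, without overlap, as for 12 of the 36 pairs of members and 25% of pairs of all genes above 0 in every library. The ratio of Nr4a1 to Nr4a2 spread far more, from 0.31 to 3.76 in the WT-labelled libraries and from 4.48 to 25 in the others, and Bach2-cKO replicate 3 at the upper end rested on 8 reads of Nr4a2.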
